A study of Mus musculus with 7 samples.

Results

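The genes described here encode the enzymes that write and erase methyl groups on histone lysines, together with the core of Polycomb repressive complex 2 (PRC2). They were the rows of the deposited count table whose symbol belongs to the Kmt2, Kmt5, Kdm1 to Kdm8, Setd, Nsd, Ehmt, Ezh or Suv39h families, plus Eed and Suz12 and without the Y-linked Kdm5d. The rule found 47 of 57180 rows. Of these, 45 passed the filter on low counts and were tested among 15838 genes, while Kdm4dl, with at most 4 counts in any library, and the pseudogene Setd9-ps, with 1 count in 1 library, were not tested. The RNA was from cells labelled as regulatory T (Treg) cells and taken from B16-F0 tumours, a transplanted mouse melanoma. Treg cells are a lineage of suppressive CD4 lymphocytes defined by the transcription factor FOXP3. Both groups shared the tumour, the Foxp3-Cre-YFP reporter, in which Cre and YFP are made under the control of Foxp3, and the genotype label WT; the labels give no further treatment and no ages. They differed in the sort for FOXP3, with 4 FOXP3-low and 3 FOXP3-high libraries. Neither the sorting gates nor the number of mice behind each group appear in the labels, and the tests therefore speak only to the spread among these 7 libraries, part of which may be technical.

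Methylation of a histone lysine does not change its charge; it is read by proteins that open or close chromatin. Methylation of H3K4 marks promoters and enhancers, H3K36 the bodies of transcribed genes, and H3K27 the genes silenced by Polycomb. Trimethylation of H3K9 and H4K20 marks heterochromatin. In T cells, EZH2 is known to rise with activation and division and to hold the identity of activated Treg cells, and the KMT2 enzymes act at promoters and enhancers of lineage genes.

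Libraries held between 9048771 counts (FOXP3-high replicate 2) and 14546999 counts (FOXP3-low replicate 3), of which 74909 to 88961 fell on the 47 rows. Levels are CPM, a gene's counts scaled to a common library size after TMM normalization, given for replicates in the order of their numbers; fold changes are log2, FOXP3-high minus FOXP3-low, with standard errors, and a gene is called where the Benjamini-Hochberg adjusted p of edgeR's quasi-likelihood test over all 15838 genes lay under 0.05. Foxp3, by which the cells were sorted, stood between 310 and 397 CPM in FOXP3-low and between 639 and 808 CPM in FOXP3-high. The content of the libraries differed in other ways. A list of 18 macrophage and monocyte genes had 17 members lower and 1, Ccr2, higher in FOXP3-high (summed level 3220 to 3996 CPM against 987 to 1008 CPM). Ccr2, Ctss and Apoe, with means of 450, 245 and 204 CPM, held most of the FOXP3-high sum. The sum thus understates the fall of other members, such as Lyz2 (mean 553 against 28.0 CPM) and Csf1r (88.7 against 5.75 CPM). Of 8 tested neutrophil genes 7 were lower (2738 to 3213 CPM against 119 to 256 CPM). Most of that sum was Il1b, with a mean of 2020.5 CPM in FOXP3-low, against 96.4 CPM in FOXP3-high. All 11 dendritic cell and MHC class II genes were lower (2064 to 3156 CPM against 181 to 289 CPM), and all 11 tested melanocyte genes were higher (1431 to 2563 CPM against 3475 to 4774 CPM). The defining markers Lyz2, Csf1r, Itgam, S100a9 and Dct were above 0 in every library, while Ms4a7, Clec9a and Retnlg were at 0 in FOXP3-high replicate 2 and Ly6g in all 3 FOXP3-high libraries. Of 17 T cell identity genes 14 were higher and 1 lower, of 19 Treg genes 13 were higher and 2 lower, of 4 tested B cell genes 2 were lower, and none of 10 endothelial genes passed. The summed endothelial level was 495 CPM in FOXP3-low replicate 3 and 133 to 180 CPM in the others of its group, and 525 CPM in FOXP3-high replicate 3, beside 259.8 and 79.7 CPM; without both of these libraries 23 members were higher and 9 lower. S phase and G2 and M phase genes were lower in 25 of 25 and in 30 of 32 cases, with median log2 fold changes of -1.69 and -2.21. The part of these differences in the results below was not tested, and in bulk libraries fewer cells of a type and less RNA per cell cannot be told apart.

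More of these chromatin genes were higher than lower in FOXP3-high, with opposite signs inside single enzyme families. Of the 45 tested, 24 were higher, or 53.3%, against 21.8% of all genes tested, and 9 were lower, or 20%, against 24.6% of all genes. The share that was lower is thus near the background. The same 33 genes were those whose libraries did not overlap between the groups, 24 with FOXP3-high above FOXP3-low (23.9% of all genes) and 9 below (26.8% of all genes; 50.7% either way). The median log2 fold change of the 45 was 0.26, beside 0.01 over all genes tested. The estimate was beyond 1 in either direction for 4 of them, beside 2514 of all 15838 genes tested. These were Kmt2d upward, and Ezh2, Suv39h1 and Suv39h2 downward. Only Suv39h1 and Suv39h2 passed edgeR's glmTreat, which asks for a log2 fold change beyond 1. Kmt2d and Ezh2 did not pass it (glmTreat adjusted p = 0.20 and 0.19). The directions hold on the TMM scale, which sets the bulk of genes level. When libraries were scaled instead to 17 T cell identity genes, the median of all genes shifted by -0.43, and the 45 tested genes gave 9 higher and 20 lower, against 5.85% and 48.1% of all genes.

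**Figure D1:**
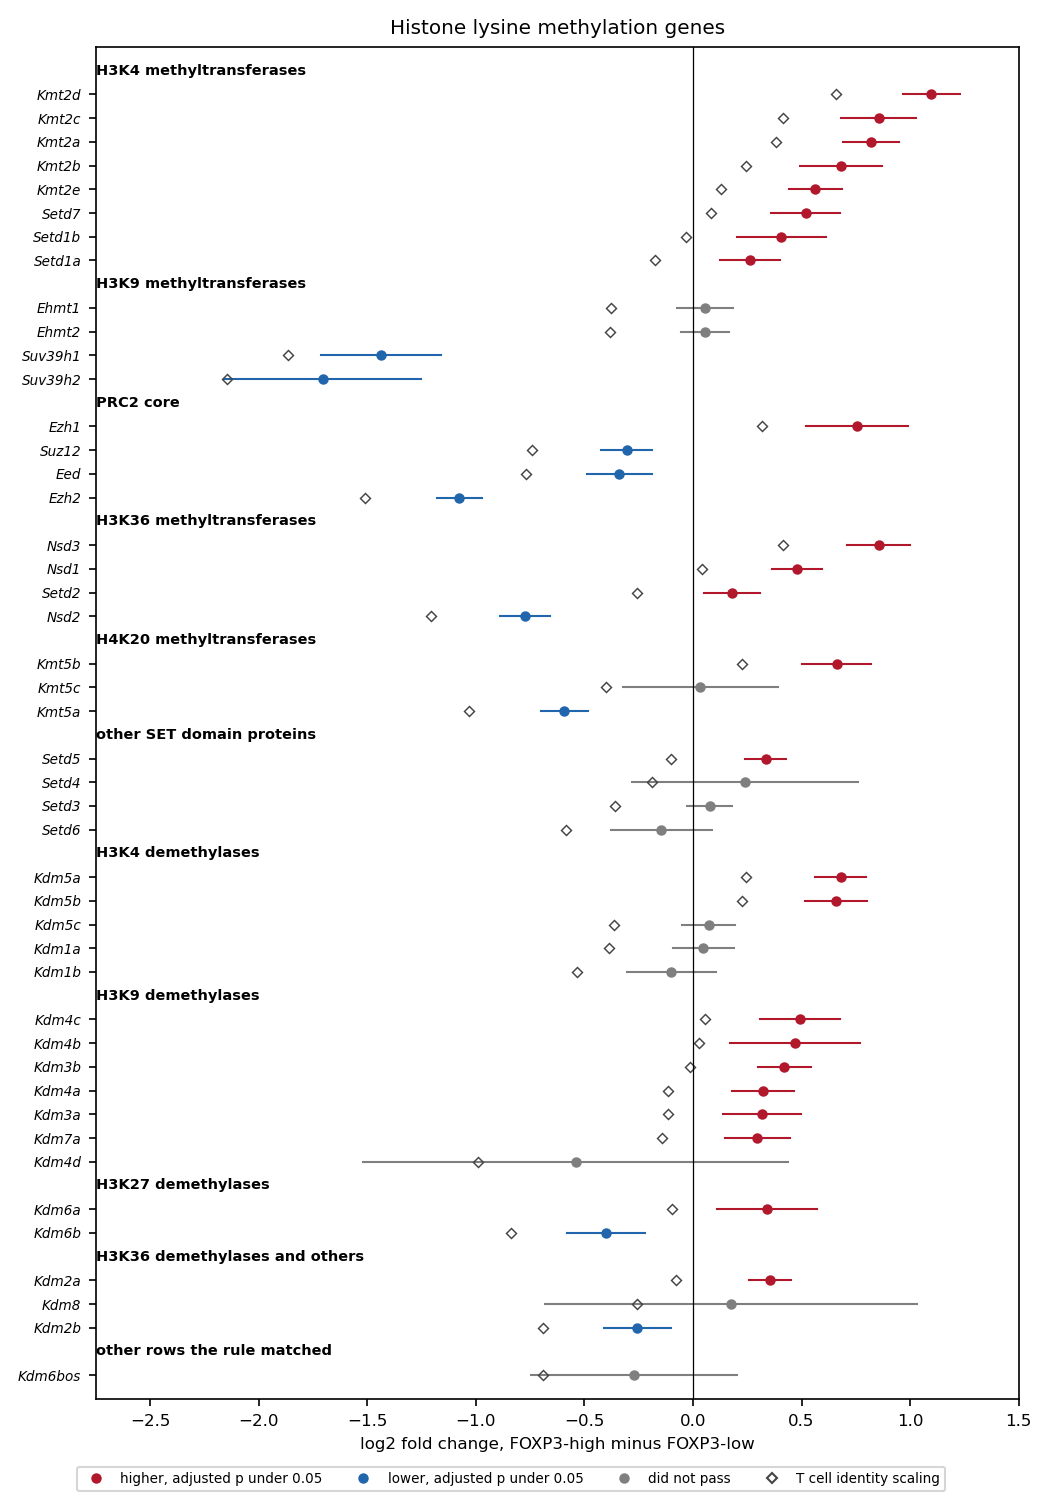
Log2 fold change (FOXP3-high minus FOXP3-low) of the 45 tested genes by role, with 95% intervals from the edgeR fit (filled circles, TMM scale; red higher, blue lower, grey not passed) and the same value with T cell identity scaling (open diamonds). All 8 H3K4 methyltransferases lie above 0 with TMM, but Setd1a and Setd1b lie below 0 with T cell identity scaling, and Suv39h1, Suv39h2, Ezh2 and Nsd2 lie furthest below under both.

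PRC2 carries the only known H3K27 methyltransferases of mammals, and its core subunits moved in opposite directions. Of 4 core genes 3 were lower and 1 higher with TMM, beside 24.6% and 21.8% of all genes. T cell identity scaling gave the same 3 lower and 1 higher, beside 48.1% and 5.85% of all genes. Ezh2, the catalytic subunit of dividing cells (chr6:47507073-47572275 in GRCm39, minus strand), stood at 272, 279, 270.1 and 279 CPM in the 4 FOXP3-low libraries and at 134, 132 and 125 CPM in the 3 FOXP3-high libraries. The groups were far apart and the replicates close together. The log2 fold change was -1.08 ± 0.0453, a 2.11-fold lower level (edgeR adjusted p = 2.55e-07). Ezh1, the paralogue that prevails in resting cells (ENSMUSG00000006920), went the other way, from 43.7, 46.4, 37.4 and 39.6 CPM to 70.1, 79.9 and 61.8 CPM. Its log2 fold change was 0.76 ± 0.104 (edgeR adjusted p = 2.79e-04); T cell identity scaling gave 0.32. FOXP3-high replicate 2 was the highest and no library crossed between groups. Eed, which reads H3K27 methylation and activates the enzyme, stood at 216, 215, 191 and 215 CPM in FOXP3-low, against 152, 172 and 173 CPM in FOXP3-high (log2 fold change -0.34 ± 0.0666, edgeR adjusted p = 0.0024). Suz12, the scaffold, stood at 176, 161, 173 and 183 CPM and 139, 140.1 and 141 CPM (log2 fold change -0.31 ± 0.0527, edgeR adjusted p = 0.0011). Both subunits fell, by a smaller log2 difference than Ezh2. The lowest FOXP3-low value of Eed, 191 CPM in replicate 3, still lay above the highest FOXP3-high value.

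Per gene length, the balance between the paralogues changed while EZH2 transcripts stayed the larger part. On the RPKM scale (CPM per kilobase of counted gene length), Ezh2 stood at 41.2 ± 0.657 in FOXP3-low, against 19.5 ± 0.683 in FOXP3-high, and Ezh1 at 5.62 ± 0.545 and 9.49 ± 1.22 (means ± SD, n = 4 and n = 3). Ezh2 made up 87.4%, 87.0%, 88.9% and 88.7% of their sum in the FOXP3-low libraries and 68.1%, 64.8% and 69.3% in the FOXP3-high libraries. These shares do not depend on the scaling of libraries, as both genes are measured in the same library. Eed, at 54.7 ± 3.19 RPKM in FOXP3-low, and Suz12, at 35.0 ± 1.80 RPKM, were of the same order as Ezh2 there, and in FOXP3-high both stood above it, at 43.2 ± 3.15 and 28.3 ± 0.183 RPKM.

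The H3K9 methyltransferases split by family: both Suv39h genes fell under TMM and T cell identity scaling, and neither Ehmt gene passed with TMM, whereas both passed as lower with T cell identity scaling and Ehmt2 as higher with total counts (0.12, edgeR adjusted p = 0.033). Suv39h1, which places H3K9 trimethylation in pericentric heterochromatin (chrX:7927410-7940860 in GRCm39, minus strand), stood at 19.7, 17.3, 15.6 and 18.6 CPM in FOXP3-low and at 6.62, 6.57 and 6.51 CPM in FOXP3-high. The groups lay far apart, and the FOXP3-high values rested on 77, 59 and 69 counts. Its log2 fold change was -1.44 ± 0.124 (edgeR adjusted p = 1.33e-05). Suv39h2, its close relative, stood at 7.64, 7.08, 7.50 and 6.86 CPM and 2.32, 2.67 and 1.70 CPM, the largest decrease of all members (log2 fold change -1.71 ± 0.202, edgeR adjusted p = 1.02e-04), and rested on only 18 to 27 counts per FOXP3-high library. Suv39h2 overlaps Dclre1c on the opposite strand, which held 495% as many counts and was also lower (log2 fold change -1.11), and Suv39h1 overlaps Gm14820, with 62.6% as many counts and a log2 fold change of -1.55. Reads may or may not have been counted by strand (not stated), and the reads of these pairs may be mixed. Ehmt1 and Ehmt2, which form the G9a and GLP pair that dimethylates H3K9 in euchromatin, had log2 fold changes of 0.057 (95% interval -0.071 to 0.18) and 0.054 (95% interval -0.057 to 0.16). Ehmt2 was the more abundant per length, at 47.5 ± 1.59 RPKM in FOXP3-low, against 49.3 ± 2.28 RPKM in FOXP3-high, above Ezh2 in both groups.

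Promoter sequences are shown for Ezh2, Suz12 and Suv39h1, which fell, and for Kmt2d and Ezh1, which rose, so that members moving in opposite directions can be set side by side. They come from RefSeq promoters of the build GRCm38.p6, which differs from the build of the counts, and run from 250 bases before the annotated start to 30 bases after it, 5′ to 3′ on the strand of the gene. Capitals mark each match to an E2F motif (TTTCCCGC, TTTCGCGC, TTTGCCGC or TTTGGCGC) or to the NF-Y motif CCAAT, searched on both strands; no matches overlap.
Ezh2, chr6:47595001-47595280, minus strand: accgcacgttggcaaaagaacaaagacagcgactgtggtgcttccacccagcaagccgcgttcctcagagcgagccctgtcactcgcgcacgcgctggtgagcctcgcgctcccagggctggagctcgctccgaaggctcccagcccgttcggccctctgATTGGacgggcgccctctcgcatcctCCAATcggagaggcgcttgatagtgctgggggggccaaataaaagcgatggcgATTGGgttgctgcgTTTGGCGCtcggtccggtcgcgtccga
Suz12, chr11:79992856-79993135, plus strand: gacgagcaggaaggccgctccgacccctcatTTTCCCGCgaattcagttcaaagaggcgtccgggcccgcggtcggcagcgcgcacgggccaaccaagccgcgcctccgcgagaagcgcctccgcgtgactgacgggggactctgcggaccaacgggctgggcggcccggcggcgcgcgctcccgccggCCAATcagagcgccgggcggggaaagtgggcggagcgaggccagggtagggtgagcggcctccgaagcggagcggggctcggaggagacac
Suv39h1, chrX:8074731-8075010, minus strand: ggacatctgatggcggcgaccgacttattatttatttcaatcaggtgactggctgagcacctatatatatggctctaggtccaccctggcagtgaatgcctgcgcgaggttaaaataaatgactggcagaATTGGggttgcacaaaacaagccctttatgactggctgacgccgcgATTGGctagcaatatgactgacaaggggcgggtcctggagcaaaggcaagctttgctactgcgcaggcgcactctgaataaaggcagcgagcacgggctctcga
Suv39h1, second annotated start, chrX:8074332-8074611, minus strand: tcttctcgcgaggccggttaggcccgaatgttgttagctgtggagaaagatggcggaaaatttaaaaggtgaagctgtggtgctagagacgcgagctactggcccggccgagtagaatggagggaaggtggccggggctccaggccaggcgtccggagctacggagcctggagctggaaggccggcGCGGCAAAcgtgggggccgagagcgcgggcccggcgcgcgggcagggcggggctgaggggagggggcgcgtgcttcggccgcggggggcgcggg
Kmt2d, chr15:98871176-98871455, minus strand: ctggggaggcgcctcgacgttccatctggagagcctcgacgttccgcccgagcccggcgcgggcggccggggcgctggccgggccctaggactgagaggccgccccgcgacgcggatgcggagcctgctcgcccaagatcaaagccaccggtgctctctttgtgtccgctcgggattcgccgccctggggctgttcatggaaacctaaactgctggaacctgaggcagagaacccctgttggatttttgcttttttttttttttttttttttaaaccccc
Ezh1, chr11:101226434-101226713, minus strand: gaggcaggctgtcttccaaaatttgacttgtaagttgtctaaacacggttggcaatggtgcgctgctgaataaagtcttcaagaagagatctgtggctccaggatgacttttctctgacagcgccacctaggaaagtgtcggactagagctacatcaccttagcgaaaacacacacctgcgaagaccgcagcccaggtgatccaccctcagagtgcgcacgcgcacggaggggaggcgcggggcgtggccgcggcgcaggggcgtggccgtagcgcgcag
The Ezh2 promoter holds 3 CCAAT matches before the start and an E2F match whose first base lies at position 4 after it. The printed Kmt2d and Ezh1 promoters hold neither motif. Of 7 members that fell and have a promoter entry, the 3 shown are the only ones with an E2F match. Eed, Kdm2b, Kmt5a and Suv39h2 hold none and are not shown, so the display does not represent all members that fell.

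Over the whole table, promoters were matched for 33 of the 47 rows, with 45 windows of 300 bases because some genes have several starts; Kdm6b, Kdm2a, Nsd1, Nsd2, Nsd3, Kdm5a, Kmt2b, Kmt2e, Setd1b, Kdm3b, Kdm4b, Kdm4dl, Kdm6bos and Setd9-ps had no entry. An E2F match was in 3 of 13 windows of members that fell (Ezh2, Suz12 and Suv39h1), in 0 of 19 windows of members that rose, in 1 of 13 windows of those that did not pass, and in 2.26% of all 32851 windows. CCAAT was in 9 of 13 windows of members that fell, 2 of 19 of those that rose, 8 of 13 of those that did not pass, and 37.4% of all windows. The cell cycle homology region motif TTTGAA was in 3, 0 and 3 windows of these sets and in 17.9% of all windows, and the ETS motif CCGGAAG in 0, 2 and 3 windows and in 8.86% of all. Windows of 1 gene share sequence, and a match or its absence describes only the letters of the window.

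All 8 H3K4 methyltransferases were higher in FOXP3-high on the TMM scale, beside 21.8% of all genes, with a median log2 fold change of 0.62. T cell identity scaling gave 5 higher, 1 lower (Setd1a) and 2 that did not pass (Setd1b and Setd7). On that scale 5.85% of all genes were higher and 48.1% lower. Kmt2d, also known as MLL4, which places H3K4 monomethylation at enhancers (chr15:98729550-98769085 in GRCm39, minus strand), had the highest fold change of all members. It stood at 314, 334, 328 and 332 CPM in FOXP3-low and at 674, 769 and 658 CPM in FOXP3-high. Every FOXP3-high library lay far above the highest FOXP3-low library. The log2 fold change was 1.10 ± 0.0581 (edgeR adjusted p = 8.25e-07); T cell identity scaling gave 0.66. Its partner enzyme at enhancers, Kmt2c (MLL3), stood at 124, 139, 132 and 139 CPM and 228, 274 and 223 CPM (log2 fold change 0.86 ± 0.0774, edgeR adjusted p = 1.86e-05). Kmt2a (MLL1), which keeps homeobox and other lineage genes active, stood at 325, 335, 327 and 319 CPM and 547, 634 and 550.1 CPM (log2 fold change 0.82 ± 0.0570, edgeR adjusted p = 3.54e-06). In each of these enzymes the FOXP3-low libraries were tightly grouped and FOXP3-high replicate 2 was the highest. Kmt2e (MLL5), a family member with little enzymatic activity of its own, stood at 295, 315, 297 and 309 CPM and 447, 483 and 418 CPM (log2 fold change 0.56 ± 0.0552, edgeR adjusted p = 3.01e-05).

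The other H3K4 enzymes rose less than Kmt2d, Kmt2c and Kmt2a with TMM. Kmt2b (MLL2), which acts at bivalent promoters, had a log2 fold change of 0.68 ± 0.0847 with no overlap between groups (109 to 139 CPM against 183 to 213 CPM). Setd7, which monomethylates H3K4 and several proteins other than histones, had one of 0.52 ± 0.0706. Setd1a and Setd1b, the enzymes that place most H3K4 trimethylation at promoters, had the smallest differences of this group with TMM, 0.26 ± 0.0613 and 0.41 ± 0.0906, and values of -0.17 and -0.032 with T cell identity scaling. Setd1a shares its locus with Gm49388 on the same strand, which held 91.1% as many counts and a log2 fold change of 0.22, so its level is uncertain.

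**Figure D2:**
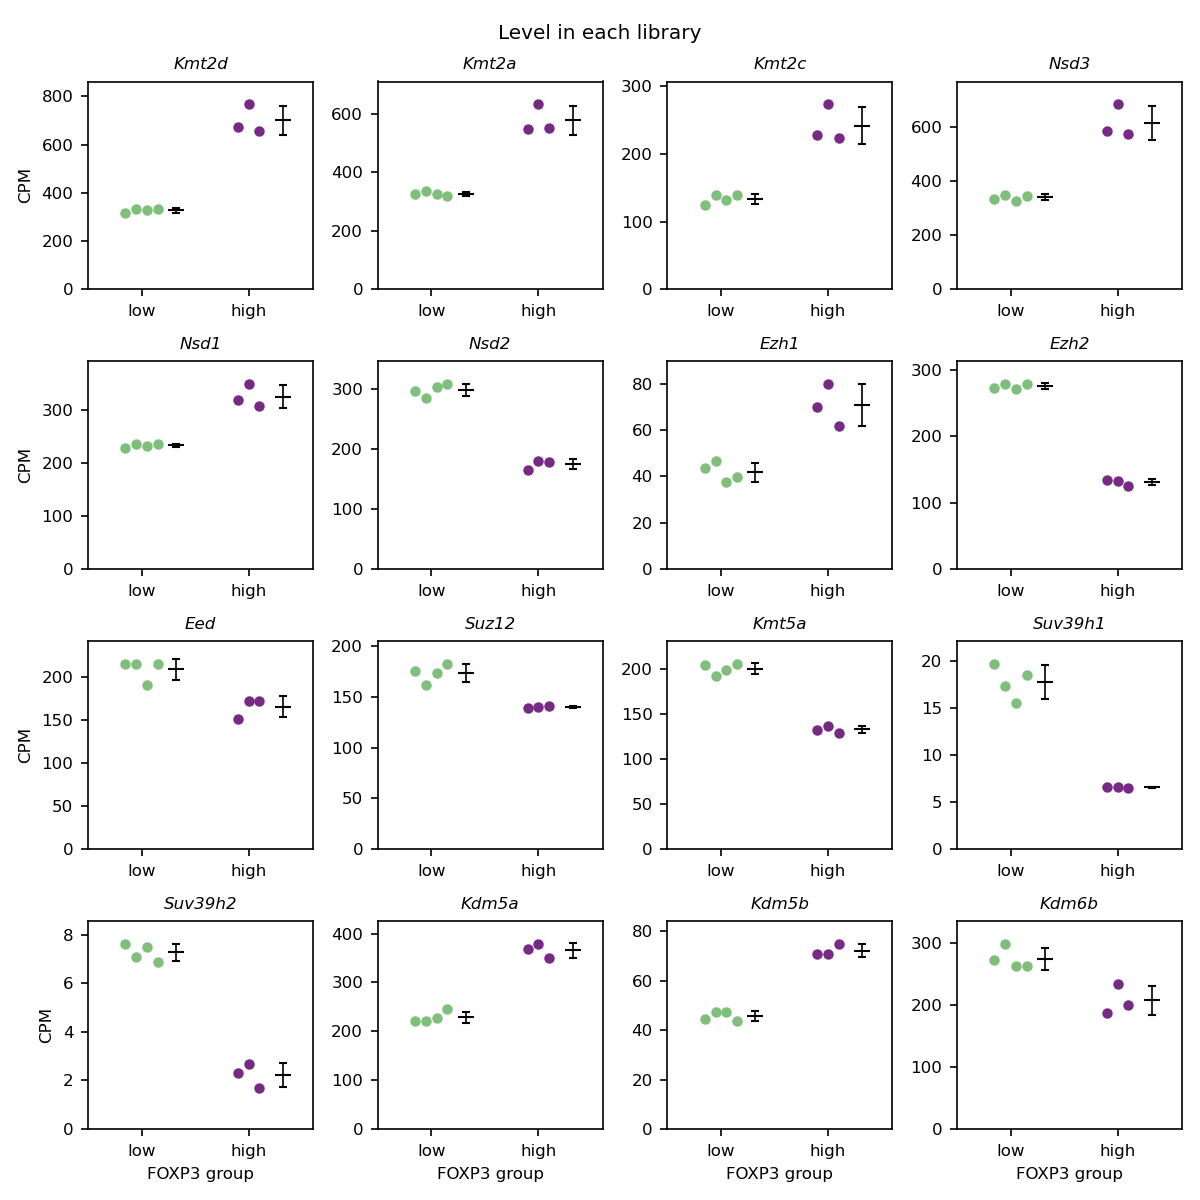
CPM in each library for 16 members (green circles FOXP3-low, n = 4; purple circles FOXP3-high, n = 3; bars mean ± SD; each axis starts at 0 and has its own range). All genes shown are among the 33 members that passed, the same members whose groups do not overlap. Groups do not overlap in 50.7% of all genes tested. Kmt2d stands at 314 to 334 CPM in FOXP3-low, against 658 to 769 CPM in FOXP3-high, and Ezh2 at 270 to 279 CPM and 125 to 134 CPM.

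Among the H3K36 methyltransferases, Nsd3, Nsd1 and Setd2 were higher with TMM and Nsd2 lower, while T cell identity scaling gave Nsd3 higher, Nsd1 not passed, and Setd2 and Nsd2 lower. The NSD enzymes place H3K36 dimethylation. Nsd2, which is known to rise in proliferating lymphocytes, stood at 296, 286, 303 and 309 CPM in FOXP3-low and at 165, 179.9 and 179 CPM in FOXP3-high (log2 fold change -0.77 ± 0.0508, edgeR adjusted p = 2.50e-06). Nsd3 stood at 335, 351, 327 and 347 CPM and 584, 686 and 575 CPM (log2 fold change 0.86 ± 0.0643, edgeR adjusted p = 5.65e-06). Nsd1 stood at 228, 236, 232 and 235 CPM and 318, 349 and 307 CPM (log2 fold change 0.48 ± 0.0510, edgeR adjusted p = 5.18e-05). The libraries of the groups lay apart in all 3 genes, and Nsd2 took 32.6% to 35.0% of the summed RPKM of the family in FOXP3-low, against 14.7% to 16.7% in FOXP3-high. Setd2, which alone places most H3K36 trimethylation, stood at 244, 271, 272 and 255 CPM and 286, 315 and 284 CPM, a narrow gap. Its log2 fold change of 0.18 ± 0.0575 (edgeR adjusted p = 0.028) did not pass without FOXP3-high replicate 1 (0.18, adjusted p = 0.072), without FOXP3-high replicate 2 (0.16, adjusted p = 0.052) or with no filter on low counts (0.14, adjusted p = 0.11), and turned to -0.26 with T cell identity scaling.

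The H4K20 methyltransferases repeated the split, with Kmt5a lower and Kmt5b higher under both scalings. Kmt5a (SET8), which places H4K20 monomethylation and whose protein is cell cycle regulated, stood at 205, 192, 199.6 and 206 CPM in FOXP3-low and at 133, 137 and 129 CPM in FOXP3-high (log2 fold change -0.59 ± 0.0481, edgeR adjusted p = 9.11e-06). Kmt5b, which adds further methyl groups to the product of KMT5A, stood at 73.0, 73.5, 65.6 and 70.9 CPM and 115, 119 and 102 CPM (log2 fold change 0.66 ± 0.0705, edgeR adjusted p = 5.28e-05). The libraries of the groups did not overlap in either gene. Kmt5c, the other enzyme of that step, had a log2 fold change of 0.034 with TMM. Its 95% interval of -0.32 to 0.39 leaves its direction undetermined on that scale. With T cell identity scaling Kmt5c passed as lower (-0.40, edgeR adjusted p = 0.029). Kmt5a made up 76.9% to 81.2% of the family's summed RPKM in FOXP3-low, against 64.8% to 68.4% in FOXP3-high.

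**Figure D3:**
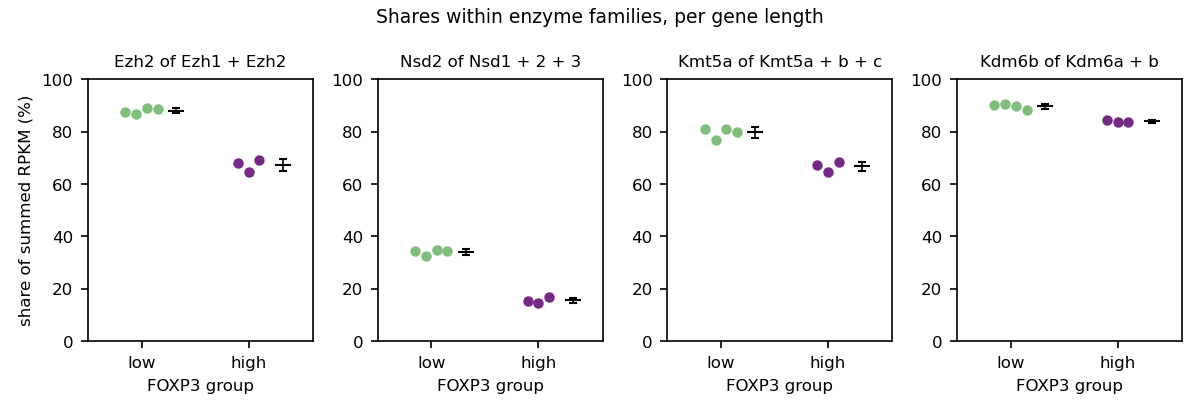
Share of 1 member in the summed RPKM of its family, in percent, for each library (green FOXP3-low, n = 4; purple FOXP3-high, n = 3; bars mean ± SD). The share of Ezh2 stands at 87.0% to 88.9% in FOXP3-low, against 64.8% to 69.3% in FOXP3-high, and Nsd2, Kmt5a and Kdm6b also take smaller shares in every FOXP3-high library.

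Of the 4 remaining SET domain genes, 1 was higher with TMM, beside 21.8% of all genes. With T cell identity scaling none was higher and 2 were lower, beside 5.85% and 48.1% of all genes. Setd5, a regulator of transcription whose own enzymatic activity is disputed, stood at 257, 269, 264 and 262 CPM in FOXP3-low, against 326, 344 and 324 CPM in FOXP3-high (log2 fold change 0.33 ± 0.0422, edgeR adjusted p = 1.57e-04; -0.10 with T cell identity scaling). Setd3, which methylates actin, Setd4, and Setd6, which methylates the NF-κB subunit RelA, did not pass with TMM. Their log2 fold changes were 0.078 (95% interval -0.026 to 0.18), 0.24 (-0.28 to 0.76) and -0.15 (-0.38 to 0.086) in the edgeR fit. Setd3 passed as higher with upper quartile factors (0.13, edgeR adjusted p = 0.040) and with total counts (0.15, edgeR adjusted p = 0.022), and as lower with T cell identity scaling (-0.36). Setd6 also passed as lower with T cell identity scaling (-0.58, edgeR adjusted p = 0.0011).

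Of the 17 tested demethylases 10 were higher and 2 lower with TMM, beside 21.8% and 24.6% of all genes. With T cell identity scaling 1 was higher and 5 lower, beside 5.85% and 48.1% of all genes. Their median log2 fold change was 0.32 with TMM. None moved by more than 1, beside 4 of the 27 methyltransferases and PRC2 subunits and 2514 of all 15838 genes tested. Among the H3K4 demethylases, Kdm5a, which removes H3K4 trimethylation, stood at 221, 221, 227 and 245 CPM in FOXP3-low, against 369, 379.7 and 349.9 CPM in FOXP3-high (log2 fold change 0.68 ± 0.0522, edgeR adjusted p = 6.47e-06). Kdm5b stood at 44.5, 47.4, 47.5 and 43.7 CPM and 71.0, 70.7 and 75.1 CPM (log2 fold change 0.66 ± 0.0631, edgeR adjusted p = 2.65e-05). Both rose along with the H3K4 methyltransferases on the TMM scale, while T cell identity scaling gave 0.24 for Kdm5a, which passed, and 0.23 for Kdm5b, which did not (edgeR adjusted p = 0.070). The X-linked Kdm5c and the LSD1 and LSD2 genes Kdm1a and Kdm1b did not pass with TMM, with log2 fold changes of 0.073, 0.048 and -0.10, and all 3 passed as lower with T cell identity scaling, while Kdm5c passed as higher with total counts (0.14, edgeR adjusted p = 0.041). Xist and the Y-linked Ddx3y were both present in every library (174 to 212 CPM and 87.4 to 141 CPM). Kdm5c and Kdm6a are known to escape X inactivation, and the part of sex chromosomes in their levels was not tested. Kdm1b overlaps Dek and Kdm1a overlaps Luzp1 on the opposite strand, which held 2758% and 69.2% as many counts.

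Of 7 tested H3K9 demethylases, 6 were higher with TMM, beside 21.8% of all genes. None passed with T cell identity scaling, beside 5.85% of all genes higher and 48.1% lower, and 4 of those 6 had a log2 fold change below 0 there. Kdm3b, which removes H3K9 mono- and dimethylation, stood at 185, 187, 174 and 175 CPM in FOXP3-low, against 234, 258 and 232 CPM in FOXP3-high (log2 fold change 0.42 ± 0.0545, edgeR adjusted p = 1.84e-04). Kdm4c, which removes H3K9 trimethylation, stood at 46.4, 40.8, 38.6 and 41.2 CPM and 55.1, 62.9 and 58.2 CPM (0.49 ± 0.0818 on the log2 scale), and Kdm4a, of the same family, at 86.0, 76.5, 81.0 and 80.1 CPM and 97.2, 108 and 98.5 CPM (0.32 ± 0.0635). Kdm7a stood at 133, 125, 124 and 114 CPM and 152, 163 and 142 CPM (0.30 ± 0.0668). The groups of these genes lay close to each other without overlap. Kdm3a and Kdm4b also rose with TMM, by 0.32 ± 0.0793 and 0.47 ± 0.134, and Kdm4b ranged from 34.9 to 55.0 CPM within FOXP3-high. Kdm4d rested on 4 to 20 counts per library and its reads may be shared with the related Kdm4dl.

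The 2 H3K27 demethylases went in opposite directions with TMM. Kdm6b (JMJD3), an enzyme induced by inflammatory and activating signals, stood at 273, 299.7, 263 and 263 CPM in FOXP3-low and at 188, 234 and 201 CPM in FOXP3-high. It was lower by a log2 fold change of -0.40 ± 0.0798 (edgeR adjusted p = 0.0025), also with T cell identity scaling (-0.84). Kdm6a (UTX), its X-linked relative and a partner of KMT2C and KMT2D, stood at 36.1, 37.4, 36.3 and 41.1 CPM and 41.3, 55.4 and 46.7 CPM (log2 fold change 0.34 ± 0.103, edgeR adjusted p = 0.022). The gap between the groups of Kdm6a was narrow, 41.3 CPM against 41.1 CPM, and the call was lost without FOXP3-low replicate 3 (0.31, adjusted p = 0.052), without both libraries numbered 3 (0.34, adjusted p = 0.065) and with quality weights in limma-voom (0.24, adjusted p = 0.053); with T cell identity scaling it was -0.10. The antisense transcript Kdm6bos, which lies inside Kdm6b, had a log2 fold change of -0.27 and overlapping groups with TMM. It passed as lower with T cell identity scaling (-0.69, edgeR adjusted p = 0.022). Its reads were not separated from those of Kdm6b with certainty.

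Kdm2a and Kdm2b, related enzymes that bind CpG islands and remove H3K36 dimethylation, also split with TMM. Kdm2b, which brings a variant Polycomb repressive complex 1 (PRC1) to CpG islands, stood at 387, 379, 322 and 364 CPM in FOXP3-low, against 290.1, 321 and 299.9 CPM in FOXP3-high (log2 fold change -0.26 ± 0.0686, edgeR adjusted p = 0.012). The highest FOXP3-high library, 321 CPM, lay just under the lowest FOXP3-low library, 322 CPM. Kdm2a stood at 127, 125, 128 and 127 CPM and 162, 166 and 159 CPM (log2 fold change 0.36 ± 0.0433, edgeR adjusted p = 1.23e-04), and was at -0.079 with T cell identity scaling. Kdm8, at 11 to 31 counts per library, did not pass.

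Partners of these enzymes, from lists written with earlier results of these data known, did not all move with their catalytic subunits. Of 10 tested PRC2 accessory genes, 4 were higher and 4 lower (median log2 fold change -0.18). Rbbp7, a histone-binding subunit, had a mean of 409 ± 12.5 CPM in FOXP3-low, against 209.6 ± 8.09 CPM in FOXP3-high (SD, n = 4 and n = 3), and fell by 0.96 on the log2 scale (edgeR adjusted p = 5.62e-07). The Polycomb-like gene Phf1 went from 16.3 ± 2.44 to 44.0 ± 2.02 CPM and rose by 1.43 (edgeR adjusted p = 8.56e-06), and Lcor rose by 0.40. Of 15 genes in a COMPASS list, most of them for proteins around the KMT2 and SETD1 enzymes, 5 were higher and 6 lower, with a median of -0.02. Among them Bod1l and Cxxc1 rose by 0.48 and 0.51. Ash1l, a methyltransferase rather than such a subunit and also in the list of other methyltransferases, rose by 0.73. Of the 4 shared core genes, named after their values were seen, Dpy30, Wdr5 and Ash2l fell by 0.47, 0.26 and 0.18 on the log2 scale, and Rbbp5 rose by 0.27 with TMM but was lower with T cell identity scaling (-0.16).

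Of 22 PRC1 genes 8 were higher and 1 lower (median 0.14). Cbx7, a reader of H3K27 methylation, had a mean of 50.9 ± 7.55 CPM in FOXP3-low, against 129.9 ± 16.7 CPM in FOXP3-high, and rose by 1.35 (edgeR adjusted p = 2.07e-05), and Bcorl1 and Phc3 rose by 1.01 and 0.60. Of 14 other tested lysine methyltransferase genes 4 were higher and 2 lower (median 0.35), with Prdm2 at 0.67, Ash1l at 0.73 and Smyd5 at -0.91. Of 18 JmjC and LSD1 complex genes 8 were higher and 2 lower (median 0.22), with Phf21a at 0.49, Zmym2 at 0.61 and the low-level Hr at -3.55. Of 14 tested heterochromatin readers and their partners 6 were higher and 5 lower (median 0.06). The heterochromatin protein 1 genes, which read H3K9 methylation, were all lower: Cbx5 fell by 0.77 on the log2 scale, and Cbx1 and Cbx3, named after their values were seen, fell by 0.46 and 0.39. In the same list L3mbtl3 went from 35.9 ± 2.70 to 71.8 ± 2.81 CPM and Tasor rose by 0.63. These counts are on the TMM scale, against 21.8% higher and 24.6% lower of all genes. With T cell identity scaling, where 5.85% of all genes were higher and 48.1% lower, the lists gave 1 higher and 7 lower for PRC2 accessory genes, 1 and 12 for COMPASS, 3 and 10 for PRC1, 2 and 5 for other methyltransferases, 0 and 9 for JmjC and LSD1 complex genes, and 2 and 9 for heterochromatin readers. Of the partners named, Lcor turned to -0.039 there, and Bod1l (0.047), Cxxc1 (0.075), Phf21a (0.055) and Zmym2 (0.18) no longer passed.

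**Figure D4:**
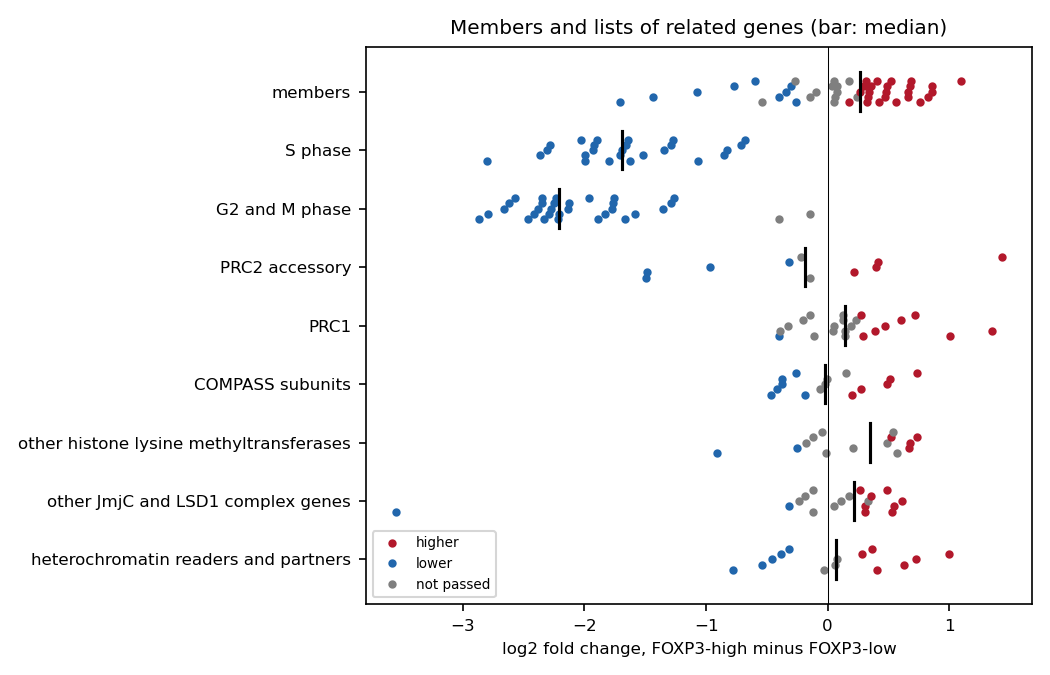
Log2 fold change (FOXP3-high minus FOXP3-low, TMM scale) of the members and of genes in lists of cell cycle genes, partners and readers (red higher, blue lower, grey not passed; black bars, medians; vertical position within a row has no meaning). The medians of the S phase and of the G2 and M phase lists, -1.69 and -2.21, lie below every member but Suv39h2 (S phase) and below all members (G2 and M phase), and the partner lists spread around 0; T cell identity scaling would move all points down by about 0.43.

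The members that fell can be set beside the cell cycle genes. The 9 lower members had log2 fold changes between -1.71 (Suv39h2) and -0.26 (Kdm2b), and the S phase list ran from -2.80 (Clspn) upward to -0.68. Summed S phase genes stood at 2839 to 2954 CPM in FOXP3-low, against 991 to 1041 CPM in FOXP3-high. Ezh2, Suv39h1, Suv39h2 and Nsd2 lay inside the range of the S phase list, and Kmt5a, Kdm6b, Eed, Suz12 and Kdm2b above it. The part of cell division in these differences was not tested.

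Members that rose on the TMM scale were longer than those that fell. The counted length was 4895 to 20291 bases in the 24 that rose and 3828 to 16803 bases in the 9 that fell, with medians of 11440 and 5307 bases. Of 18 tested members of at least 10000 bases, 16 were higher and 2 lower (Nsd2 and Kdm2b), and of 27 shorter ones 8 were higher and 7 lower. Longer genes were more often higher across the whole table too, with 42.9% of 1300 genes of at least 10000 bases higher and 16.7% lower, against 20% and 25.3% of the 14538 shorter genes. Over the 45 members the log2 fold change and the log2 length had a Pearson r of 0.50 and a Spearman rho of 0.65, and over all genes tested 0.11 and 0.13; genes share libraries and are not independent replicates. The part of transcript length in the differences was not tested.

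**Figure D5:**
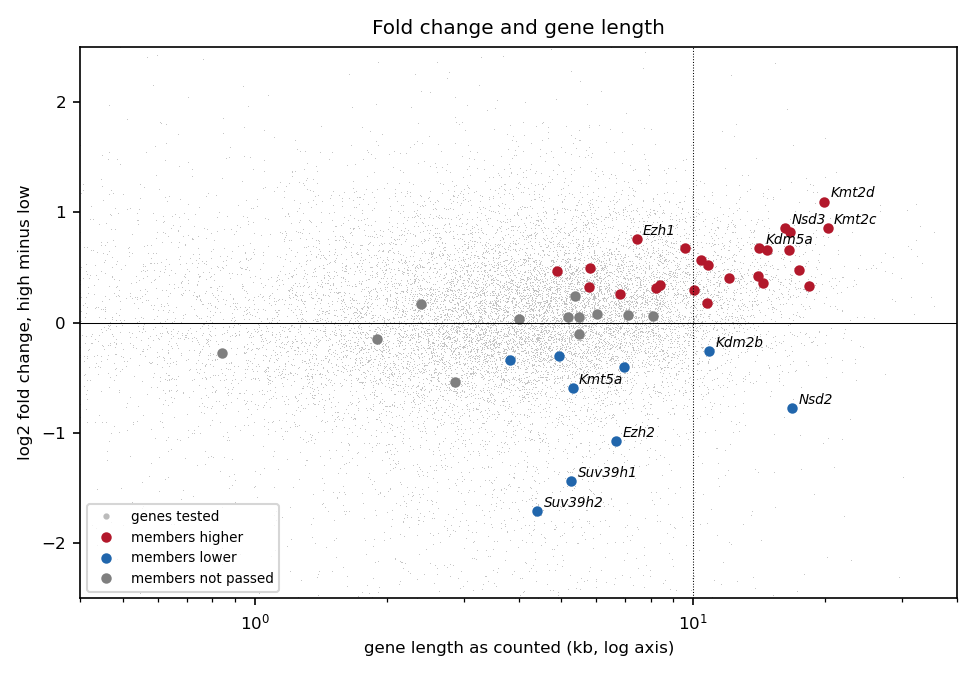
Log2 fold change (TMM scale) against counted gene length in kilobases (log axis) for the 45 tested members (red higher, blue lower, grey not passed) and for all genes tested (light grey; 1143 genes lie outside the plotted window). To the right of the dotted line at 10 kb all members but Nsd2 and Kdm2b are higher; T cell identity scaling would lower all points by about the same amount.

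The spread among libraries was larger in FOXP3-high, without a test of that difference. In the 37 members with at least 20 CPM in both groups the median coefficient of variation was 4.30% in FOXP3-low, against 6.59% in FOXP3-high. FOXP3-high replicate 2 was the highest of its group in 23 of the 24 members that rose, and in 63.8% of all 3459 genes that rose. That library also had the most Foxp3 (808 CPM), the smallest total (9048771 counts) and the smallest melanocyte sum of its group (3475 CPM). Without it, 23 members were higher and 9 lower, with Setd2 the call that was lost.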

How the data were processed

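Bulk RNA was sequenced in 7 libraries, 4 FOXP3-low and 3 FOXP3-high. The authors deposited 1 table of raw read counts per gene with gene names, positions and a length per gene; STAR 2.5.3a, fastp 0.23.4 and featureCounts are the tools, and GRCh38 and GRCm39 the builds, that appear per the submitters' processing notes. Whether strand, duplicates or multiply mapped reads were taken into account is not stated, which affects overlapping genes and close copies. Gene length is the other deposited value, used as it stands. All 7 sample columns were matched to a sample by their names (0 unmatched), and 0 rows lacked a gene name.

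Counts were tested in R 4.3.3 with edgeR 4.0.16: filterByExpr (minimum count 10, minimum total 15), TMM factors, quasi-likelihood test of FOXP3-high minus FOXP3-low over all 15838 genes kept, Benjamini-Hochberg adjustment and a threshold of 0.05. The common biological coefficient of variation was 0.178. Each standard error was derived from the log2 fold change and its F statistic, and 95% intervals used the t distribution of that fit. RPKM is TMM-scaled CPM per kilobase of deposited length. The same-group library pairs all differed by more than sampling noise (chi-square per gene 3.98 to 12.2), so none was counted as a repeat of another. This spread does not show that the libraries came from separate mice, which the labels do not give. Scripts were tested on simulated data.

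The members, gene lists and motifs were chosen with earlier results of these data known. Values in every library are given for Kmt2d, Ezh2 and, in each role, the leading called members by adjusted p, 4 at most; from each list of partners up to 3 genes by the same rule are named, except where the text says otherwise. Alternatives were DESeq2 1.42.0, upper quartile, total count and T cell identity scaling, other filters, the DESeq2 Wald test, limma 3.58.1 voom with and without quality weights, glmTreat, a replicate block, and leaving out libraries. Promoter windows are RefSeq entries of GRCm38.p6.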

Additional observations from a re-analysis of the deposited data

Results flagged for a closer look

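Among the 45 tested members, 3 had a FOXP3-low library that stood apart from the other 3 of its group by Dixon's criterion, which chance meets in about 1 in 20 groups. Kdm1a was at 71.8 CPM in FOXP3-low replicate 4 and between 77.8 and 78.8 CPM in the others. Setd1b was at 75.7 CPM in FOXP3-low replicate 2 and between 69.6 and 70.3 CPM in the others. Eed was at 191 CPM in FOXP3-low replicate 3 and between 215 and 216 CPM in the others. FOXP3-high, with 3 libraries, was not examined this way.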

How the results depend on the processing

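Of the 33 members that passed, 31 kept their direction and passed under every alternative other than T cell identity scaling and glmTreat, and Suv39h1 and Suv39h2 also under those. The exceptions were Setd2 and Kdm6a, whose values are given above. T cell identity scaling gave 9 members higher and 20 lower and 926 genes higher and 7622 lower, and glmTreat, which asks for a log2 fold change beyond 1, gave 0 and 2 members and 137 and 981 genes. Under glmTreat the 2 members were Suv39h1 and Suv39h2. Signs turned with T cell identity scaling, which moves all genes down, for Ehmt1 (-0.38), Ehmt2 (-0.38), Kdm1a (-0.39), Kdm5c (-0.36), Kdm4a (-0.12), Kdm3a (-0.12), Kdm3b (-0.015), Kdm7a (-0.14), Kdm2a (-0.079), Kdm6a (-0.098), Kdm8 (-0.26), Kmt5c (-0.40), Setd1a (-0.17), Setd1b (-0.032), Setd2 (-0.26), Setd3 (-0.36), Setd4 (-0.19) and Setd5 (-0.10). Kmt5c, which did not pass with TMM, was at -0.0097 with no filter and at -0.071 with quality weights. Leaving out 1 library moved Kmt5c from -0.10 to 0.17 and Kdm8 from -0.27 to 0.45; the cause was not tested.

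Leaving out 1 library gave 23 to 24 members higher and 9 lower, with 2718 to 3318 genes higher and 3412 to 3674 lower. Without both libraries numbered 3, 23 members were higher and 9 lower. The split of all genes was 3898 higher and 3591 lower with upper quartile factors and 4122 and 3476 with total counts, with 25 and 27 members higher and 9 lower. With the replicate number as a block, 24 members were higher and 9 lower, and 3294 and 3735 genes. The labels do not say whether the numbers pair the samples. Deviations of same-numbered libraries from their group means correlated at -0.10, 0.097 and 0.53, the last being the highest of any pair. FOXP3-high replicate 2 correlated best with FOXP3-low replicate 1 (0.34). Deviations from a mean of few libraries depend on each other, so these values cannot decide whether samples are paired. Counts were low for Kdm4d (4 to 20 per library), Kdm8 (11 to 31) and, in FOXP3-high, Suv39h2 (18 to 27).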
